A study of Drosophila melanogaster with 2 samples.

Results

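Aminoacyl-tRNA synthetase genes encode the enzymes that join each amino acid to its transfer RNA (tRNA), the step that sets the genetic code. Animal cells run this reaction in the cytosol and again inside the mitochondrion, and many of the mitochondrial enzymes come from separate nuclear genes, which in the fly carry the suffix -m. In the fly symbols the 3 letters before RS name the amino acid, so SerRS loads serine and ArgRS arginine. Members were the protein-coding genes of the Ensembl fly annotation whose symbol is a capital letter, 2 lower-case letters and RS, with or without a suffix. The pattern found 32 genes of 13945 on the chromosome arms with called regions, 17 cytosolic and 15 with -m. The pattern reads the symbol alone, so cytosolic here means a symbol without -m, wherever the enzyme acts. Of these 17 genes, 5 have no -m partner.

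The data are chromatin immunoprecipitation and sequencing (ChIP-seq) of an ey-eGFP fusion in *Drosophila melanogaster*. Eyeless (ey) is a fly Pax6 protein that binds DNA through a homeodomain and a paired domain, best known for its role in eye development. All libraries came from a transgenic line, strain ey-GFP, that stably carries ey with GFP at its C-terminus, and from whole larvae at the wandering stage of the third instar, males and females pooled, of unknown age. The description names an antibody against GFP, while the antibody entry reads ey. There were 2 biological replicates, numbered 1 and 3, and no second condition, so no groups could be compared, and signal from any 1 larval tissue cannot be told apart from the rest of the body.

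The deposited lists hold called regions with a summit and a signal, a strength given by the authors on an unstated scale and read within a list only. The optimal list, thresholded by the authors on the irreproducible discovery rate (IDR) across replicates, held 6835 regions with signals from 79.3 to 4342 (median 149). The pooled list (30000 regions) and the lists of replicate 1 (30000) and replicate 3 (27637) also hold weak regions. From each replicate list the 6835 regions of highest signal are called top-ranked here, and they reached down to a signal of 45.2 in replicate 1 and 36.9 in replicate 3. Genes with an optimal summit in their body or at most 1 kb outside it are called bound. Adjacent genes can then be bound through the same region, and nothing in the lists says which of them it serves.

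Summits at the synthetase genes lay mostly in AT-rich sequence just upstream of a start site, of the synthetase gene or of a neighbour. The summit windows of 3 bound genes of each class are printed to show that base composition. Those of GlnRS, LeuRS-m and SerRS-m lie 3095, 919 and 2641 bp from the start site of the synthetase gene. They were taken in order of signal, leaving out 1 chromosome arm and windows with fewer than 50 bases outside annotated UTRs. Each runs 50 bases to either side of the optimal summit in dm6 (Release 6 of the genome), 5′ to 3′ on the strand of the gene, with the longest run of A and T alone in capitals. That run does not cover the summit base in every window. The windows are IleRS at chr3L:22288478-22288578 (plus strand), GlnRS at chr3R:25262576-25262676 (minus strand) and AsnRS at chr2L:19132035-19132135 (minus strand). For the mitochondrial genes they are LeuRS-m at chr3L:4824884-4824984, ArgRS-m at chr3R:7886879-7886979 and SerRS-m at chr3R:15343258-15343358 (plus strand in each).
IleRS: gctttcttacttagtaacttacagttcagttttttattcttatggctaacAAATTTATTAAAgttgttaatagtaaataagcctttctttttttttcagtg
GlnRS: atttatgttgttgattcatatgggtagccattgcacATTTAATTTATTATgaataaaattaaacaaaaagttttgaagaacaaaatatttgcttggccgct
AsnRS: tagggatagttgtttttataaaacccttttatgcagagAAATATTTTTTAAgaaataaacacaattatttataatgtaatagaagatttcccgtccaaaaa
LeuRS-m: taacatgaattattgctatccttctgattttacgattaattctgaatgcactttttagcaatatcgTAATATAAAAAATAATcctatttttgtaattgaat
ArgRS-m: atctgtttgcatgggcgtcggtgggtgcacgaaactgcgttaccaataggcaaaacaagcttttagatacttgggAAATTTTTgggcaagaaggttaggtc
SerRS-m: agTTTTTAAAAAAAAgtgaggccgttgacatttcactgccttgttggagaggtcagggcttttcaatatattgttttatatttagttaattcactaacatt

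The capitals ran for 12 bases at IleRS, 14 at GlnRS, 13 at AsnRS, 16 at LeuRS-m, 8 at ArgRS-m and 13 at SerRS-m. GC content of the windows was 24.8%, 26.7%, 23.8%, 22.8%, 45.5% and 31.7% in the same order. ArgRS-m therefore stood apart from the other 5 windows, with the shortest run and the most G and C.

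Optimal summits lay at more of the cytosolic genes than of the mitochondrial ones. Of the 17 cytosolic genes 10 (58.8%) were bound: SerRS, IleRS, AspRS, GlnRS, AsnRS, ArgRS, ThrRS, AlaRS, ValRS and GlyRS. Of the 15 mitochondrial genes 4 (26.7%) were bound: LeuRS-m, ArgRS-m, SerRS-m and CysRS-m. The background was 34.1% of all protein-coding genes, and 37.4% of the 6996 genes as long as the members (1595 to 10949 bp). Over all 32 members the share was 43.8% (14 genes). The median length was 2760 bp for the cytosolic and 2727 bp for the mitochondrial genes, so the classes hardly differed in length. Genes are not replicates and the libraries form 1 group, so no p was computed for this difference. The separate replicate lists show how it varied between the libraries, not how uncertain a share over so few genes is.

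Each replicate gave a higher share for the cytosolic genes. The gap was narrower in replicate 1 among top-ranked regions and narrower in replicate 3 over the whole lists. Among top-ranked regions of replicate 1, 10 cytosolic (58.8%) and 6 mitochondrial genes (40.0%) had a summit, against 33.4% of all genes. In replicate 3 the counts were 11 (64.7%) and 4 (26.7%), against 34.5%. Optimal regions with a top-ranked counterpart in both replicates marked 8 cytosolic and 3 mitochondrial genes, against 28.7% of all genes. In the whole pooled list 15 cytosolic genes (88.2%) and 5 mitochondrial genes (33.3%) had a region of any strength, against 63.4% of all genes. In the whole list of replicate 1 the counts were 15 (88.2%) and 6 (40.0%), against 61.8%. The whole list of replicate 3 also gave 15 cytosolic genes but 10 mitochondrial ones (66.7%), against 66.6%, so there the mitochondrial share was that of all genes.

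**Figure D1:**
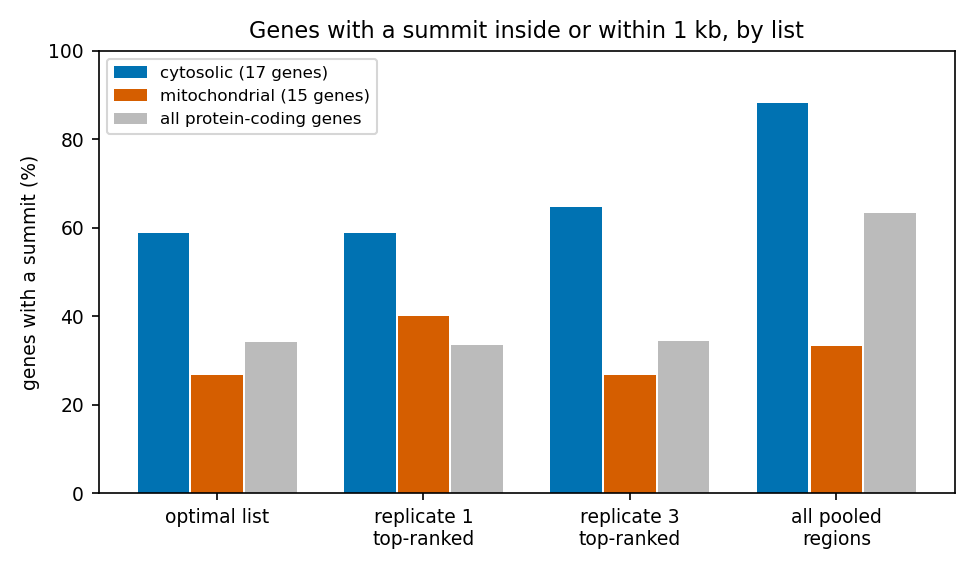
Share of genes (%, vertical axis) with a summit inside the gene or within 1 kb, for 17 cytosolic and 15 mitochondrial synthetase genes and all protein-coding genes, in 4 lists. The cytosolic bar is the tallest in each list, and the mitochondrial bar stands above that of all genes in replicate 1 (40.0% against 33.4%) and below it in the other lists.

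The strongest region at a cytosolic gene belonged to SerRS (2L, 3037195 to 3037585). Its signal was 561 in the optimal list (rank 439), 278 in replicate 1 (rank 542) and 287 in replicate 3 (rank 373). All 3 lists placed the summit at the same base, 14 bp inside the gene, in annotated 5′ UTR. CG17260 overlaps SerRS there, and a start site of it lay 22 bp from the summit. The next strongest, IleRS (3L, 22288423 to 22288657), had 305 in the optimal list (rank 1263), 120 in replicate 1 (rank 1974) and 175 in replicate 3 (rank 951). Its summit lay 137 bp upstream of the start site, between IleRS and Hem, the gene of a subunit of the actin-regulating SCAR complex.

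AsnRS, ArgRS and ThrRS formed a group of similar strength and position. AsnRS (2L, 19131919 to 19132144) had a signal of 222 in the optimal list (rank 1973), 102 in replicate 1 and 123 in replicate 3, 131 bp upstream of its start. ArgRS (X, 15844069 to 15844498) had 210 (rank 2160), 88.3 and 117 in the same lists, 139 bp upstream. ThrRS (2L, 12103559 to 12103679) had 200.1 (rank 2340), 79.4 and 113, 129 bp upstream. At all 3, the rank was better in replicate 3 than in replicate 1, and the summit was nearer to the synthetase start site than to that of the gene facing it. These neighbours are DCTN6-p27, which encodes a subunit of the dynein cofactor dynactin, CG8578 and Patsas.

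AspRS and GlnRS were bound away from their outermost start sites. AspRS has several annotated start sites, and its 2 optimal summits lay 227 bp (2R, 12879985 to 12880096, signal 247, rank 1704) and 25 bp (signal 83.7, rank 6497) upstream of an internal one. The stronger summit was in an intron and closer to a start site of the overlapping gene Nmda1 (173 bp) than to that of AspRS. Replicate 3 had a region of signal 141 there, whereas the replicate 1 region (signal 111) overlapped the weaker summit alone. GlnRS was bound through a region beyond its 3′ end (3R, 25262534 to 25262747), with a signal of 244 (rank 1740), 119 in replicate 1 and 116 in replicate 3. That summit lay 3095 bp from the GlnRS start site and 115 bp from the start of CG11858, so GlnRS had no optimal summit at its own start.

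AlaRS, ValRS and GlyRS were bound more weakly, and ValRS and GlyRS missed the top-ranked list of 1 replicate. AlaRS (2L, 8381621 to 8382050) had a signal of 132 (rank 3975), 79.2 in replicate 1 and 48.4 in replicate 3, 72 bp upstream of its start and inside the 3′ UTR of CG13392. ValRS (2R, 13198158 to 13198587) had 115 (rank 4646), 44.1 in replicate 1 (rank 6992) and 67.3 in replicate 3 (rank 3619). Its summit was 477 bp from the ValRS start and 36 bp from that of Kdm4B, a histone demethylase gene. GlyRS (3L, 15094691 to 15095120) had 91.2 (rank 5911), 39.9 in replicate 1 (rank 7759) and 47.4 in replicate 3 (rank 5374). It lay 236 bp from GlyRS and 182 bp from Plp, the gene of the centrosomal pericentrin-like protein.

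The other 7 cytosolic genes, CysRS, HisRS, LeuRS, LysRS, MetRS, TrpRS and TyrRS, had no optimal summit. MetRS came closest to the threshold, with a pooled signal of 77.2 at rank 7016, 96 bp upstream of its start. It was top-ranked in replicate 1 (signal 46.1, rank 6679) and had no region in the list of replicate 3. The member just inside the threshold was CysRS-m, with 84.2 at rank 6449. Pooled signals were 56.4 at HisRS, 49.2 at LysRS, 47.4 at TyrRS and 24.1 at CysRS. HisRS was top-ranked in replicate 3 through a region 805 bp inside the gene (rank 6084). TyrRS had its pooled region although neither replicate list held one for it. No pooled region was listed at TrpRS or LeuRS. TrpRS had a top-ranked region in replicate 1 alone, 48 bp upstream (signal 52.8, rank 5700), and at LeuRS the list of replicate 3 held 4 weak regions, the strongest at a signal of 15.8.

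**Figure D2:**
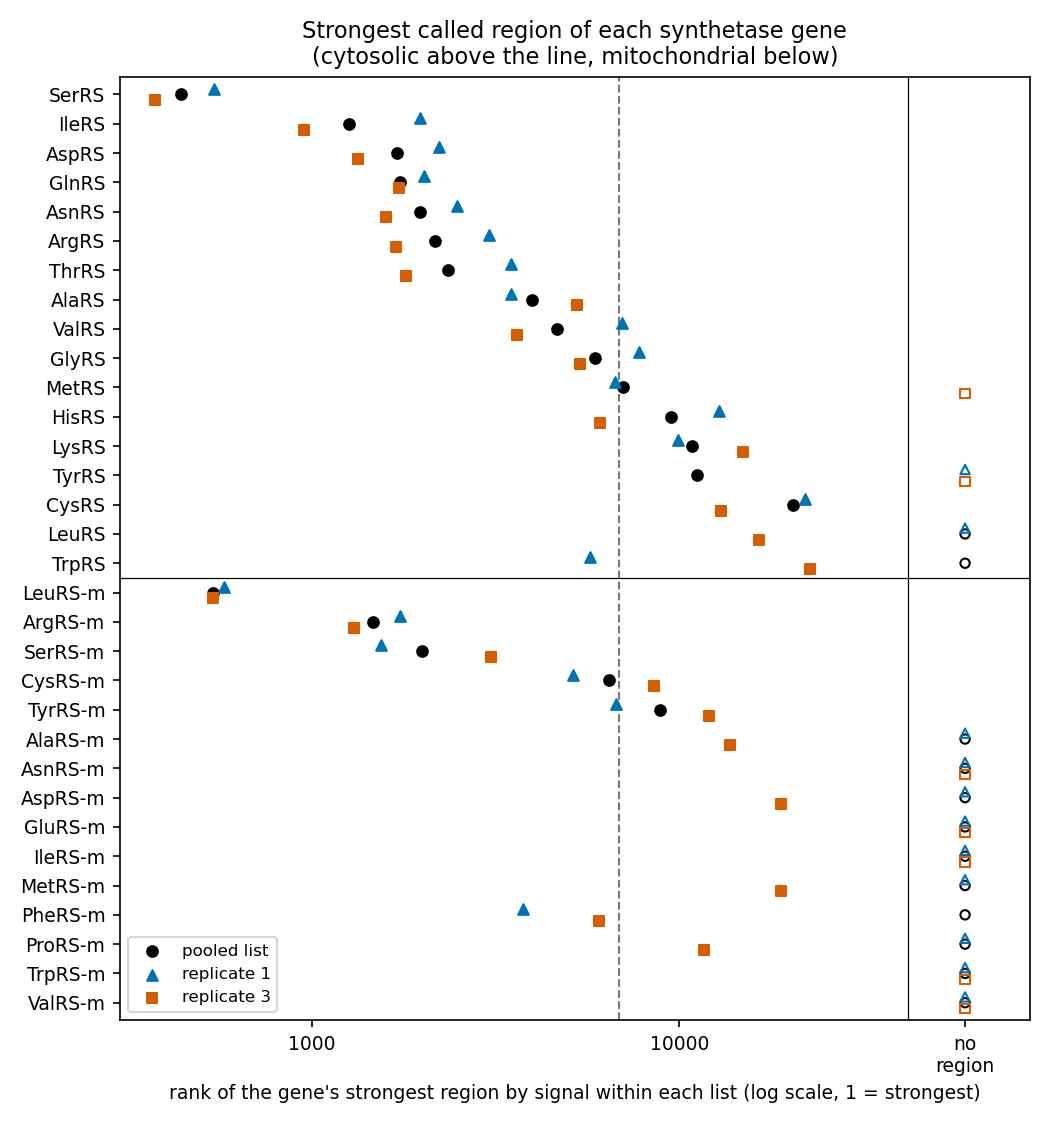
Rank by signal (log axis, 1 is the strongest) of the strongest region of each of the 32 genes in the pooled list and in the lists of replicates 1 and 3, with open symbols at the right where a list held no region. The dashed line marks rank 6835, the end of the optimal and top-ranked lists. Most cytosolic genes have a symbol for every list, while 10 of the 15 mitochondrial genes have no pooled region.

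LeuRS-m had the strongest region of the mitochondrial genes (3L, 4824747 to 4825163), with a signal of 504 in the optimal list (rank 537), 267 in replicate 1 (rank 576) and 241 in replicate 3 (rank 539). Its summit lay 919 bp upstream of LeuRS-m, within an intron of Dhc64C, the gene of the cytoplasmic dynein heavy chain. A second optimal summit of LeuRS-m was 48 bp upstream of its start, with a signal of 139 (rank 3740), 66.2 in replicate 1 and 59.2 in replicate 3. The strongest region and the one at the start site were thus different regions at this gene.

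ArgRS-m (3R, 7886848 to 7887088) had a signal of 274 (rank 1462), 132 in replicate 1 and 142 in replicate 3, 116 bp upstream of its start. It was the sole mitochondrial gene whose own start site was the nearest to its strongest summit. SerRS-m had 3 optimal summits toward and past its 3′ end. The strongest (3R, 15343093 to 15343522) had 221 (rank 1991), 143 in replicate 1 and 77.3 in replicate 3, 2641 bp from the SerRS-m start and 52 bp from that of Nagk, the gene of N-acetylglucosamine kinase. CysRS-m (2R, 14161166 to 14161595) had 84.2, 57.2 in replicate 1 (rank 5137) and 29.5 in replicate 3 (rank 8546). Its summit was 119 bp from the CysRS-m start and 49 bp from O-fut1, which encodes the protein O-fucosyltransferase that acts on Notch.

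Of the 11 mitochondrial genes that were not bound, TyrRS-m alone had a pooled region (signal 60.9), 2614 bp from its start and past its 3′ end. No list at all held a region for AsnRS-m, GluRS-m, IleRS-m, TrpRS-m or ValRS-m, a state that none of the cytosolic genes shared. AlaRS-m, AspRS-m, MetRS-m and ProRS-m had weak regions in replicate 3 alone, with best signals of 18.4, 14.2, 14.2 and 21.4. PheRS-m differed from these. It was top-ranked in replicate 1 (signal 75.2, rank 3750) and in replicate 3 (42.1, rank 6038), 109 and 83 bp upstream of its start, yet the pooled list holds no region for it. Of 5610 regions of replicate 1 that were top-ranked in both replicates, 19 (0.339%) had no pooled region. By the replicate lists, PheRS-m would therefore count among the genes with a summit, and TyrRS-m would in replicate 1 (rank 6727).

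For 12 amino acids the pattern found a cytosolic and a mitochondrial gene. Both were bound for arginine and serine, the cytosolic gene alone for alanine, asparagine, aspartate, isoleucine and valine, and the mitochondrial gene alone for cysteine and leucine. Neither was bound for methionine, tryptophan or tyrosine. By the best region of each bound gene, strength did not order the classes as the counts did. The median rank of the best optimal region was 2066.5 (range 439 to 5911) for the 10 cytosolic genes and 1726.5 (537 to 6449) for the 4 mitochondrial genes, against 2604 for all bound genes. The mitochondrial median includes regions of LeuRS-m (rank 537) and SerRS-m (rank 1991) that lay 919 and 2641 bp from their starts. Summits within 500 bp of a mitochondrial start site had ranks of 1462 (ArgRS-m), 3740 (LeuRS-m) and 6449 (CysRS-m). The strongest such summit of each cytosolic gene ranked from 439 (SerRS) to 5911 (GlyRS). At start sites the ranks of the classes therefore overlapped, and 3 mitochondrial genes are too few to order the classes by strength.

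Positions were concentrated at start sites. An optimal summit lay within 500 bp of a start site of 9 cytosolic and 3 mitochondrial genes, 37.5% of the 32 members against 23.0% of all genes. These genes held 13 such summits, of which 12 were upstream of the start site and 11 of those lay between it and a start site of a gene facing the other way within 1 kb. The AlaRS summit was upstream with no such gene, and the SerRS summit was inside its gene. Of the 11, the stronger AspRS summit lay 173 bp downstream of the nearest start site of Nmda1, in an intron. Of the 14 best summits, 12 had a start site of another gene within 500 bp, and for 7 of the 14 the synthetase start site was the nearest of all. The counts upstream, between facing start sites and by nearest start site were not taken over all optimal summits. They therefore cannot be called particular to the synthetase genes. For GlnRS, SerRS-m and the strongest region of LeuRS-m, the region was not near the synthetase start site. Replicates placed the summit of the same region 0 to 81 bp apart (median 48 bp, 13 regions), against a median of 30 bp over 6712 optimal regions. Spearman's rho of the replicate signals over these 13 regions was 0.835, a description of 1 pair of libraries.

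**Figure D3:**
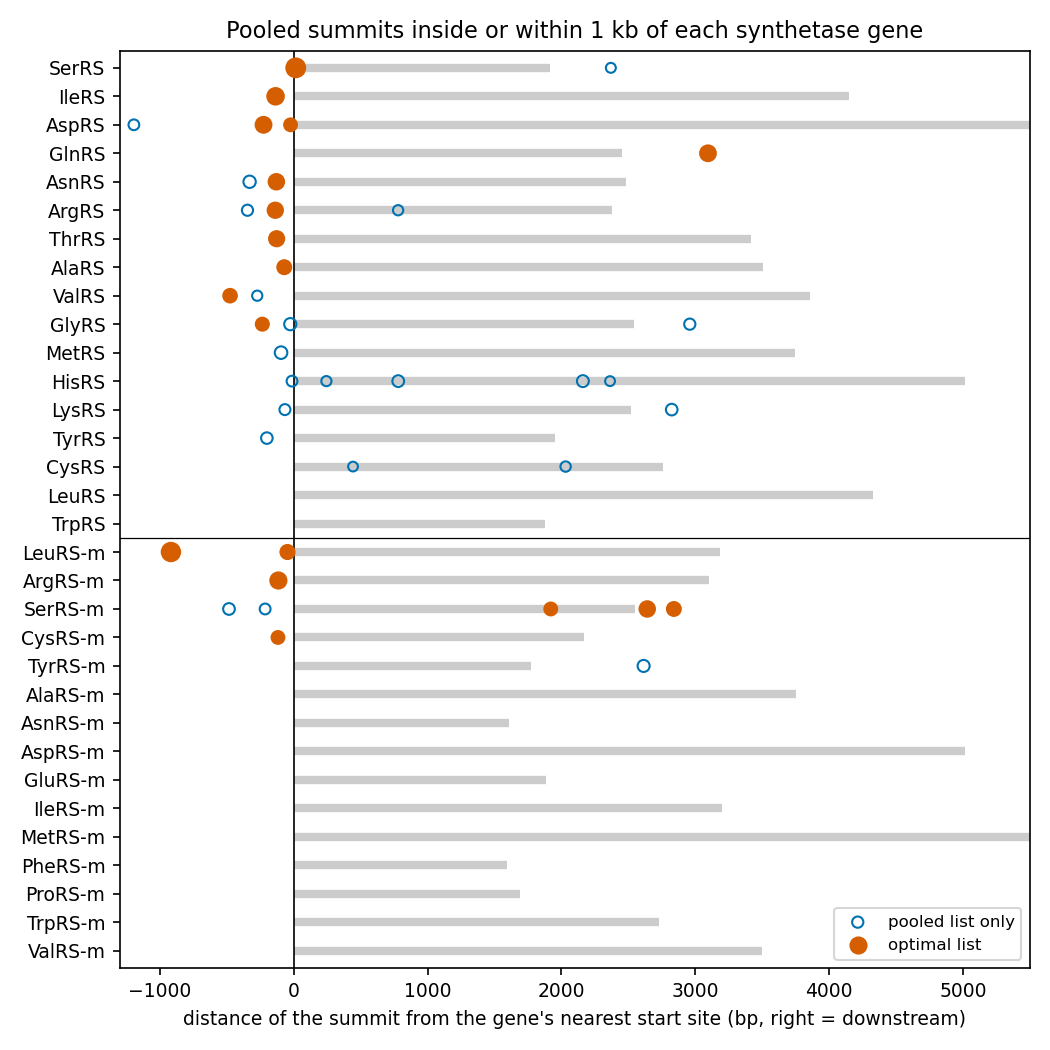
Summits of the pooled list at each gene, by distance (bp) from the nearest start site of the gene, with downstream to the right. Filled symbols are in the optimal list, open ones in the pooled list only, symbol area grows with signal, and grey bars give the gene length from 0 and are clipped at the right edge. Most filled symbols lie within 500 bp to the left of 0. The strongest of LeuRS-m is 919 bp to the left, that of SerRS is 14 bp to the right, and those of SerRS-m and GlnRS are farther downstream. AspRS is measured from an internal start site, so its bar is not aligned with its summits.

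Many members face another gene. A head-to-head neighbour, defined here after the values had been seen as a protein-coding start site on the opposite strand 0 to 1000 bp upstream, was present at 15 of 17 cytosolic genes (88.2%) and 7 of 15 mitochondrial genes (46.7%), against 36.2% of all genes. Start-site summits were commoner at such genes throughout the genome, 40.4% against 13.2% of the genes with none. Among the members 11 of 22 head-to-head genes had a start-site summit and 1 of 10 others did, AlaRS. Within the head-to-head genes the classes came closer together, with a start-site summit at 8 of 15 cytosolic and 3 of 7 mitochondrial genes. The part of gene arrangement in the difference between the classes was not tested.

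At a split of 300 bp, start-site summits were spread unevenly over the spacing between the facing start sites. The spacing was looked at after the data had been seen. At a split of 200 bp the contrast among members was smaller, 7 of 12 above it against 4 of 10 at or below. Of the 8 members with more than 300 bp between them, 7 had a start-site summit: ArgRS-m (312 bp), ArgRS (331), AsnRS (369), GlyRS (418), ThrRS (466), IleRS (470) and ValRS (513). HisRS, with the longest spacing of 561 bp, did not. Of the 14 with closer start sites 4 did: SerRS (8 bp), AspRS (38 bp), LeuRS-m (166 bp) and CysRS-m (168 bp). The spacing given for AspRS is to Lfg at its outermost start, while its summits lie at an internal one. The other 10, from AlaRS-m (35 bp) to TyrRS (295 bp), had none. Over all genes 37.1% had a start-site summit above 300 bp and 43.5% at or below it. That order depended on the split, since at 200 bp the shares of all genes were 42.6% above and 35.2% at or below. In replicate 1 alone the members' counts were 5 and 6, and in replicate 3 they were 7 and 3, so the contrast was the smaller in replicate 1.

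**Figure D4:**
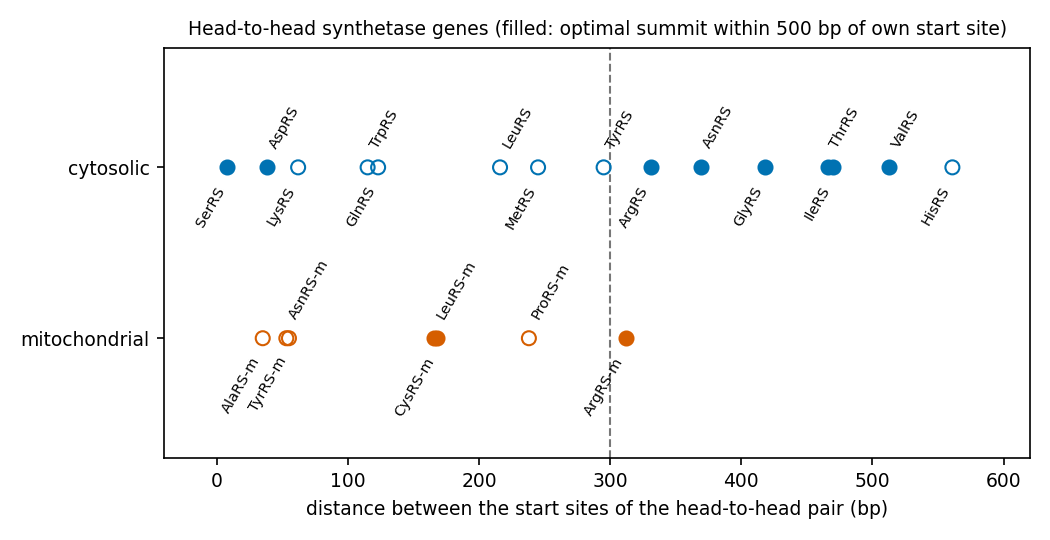
Distance (bp, horizontal axis) between the start sites of each of the 22 synthetase genes with a head-to-head neighbour and that neighbour, cytosolic genes above and mitochondrial below. Filled symbols have an optimal summit within 500 bp of a start site of the gene, and the dashed line marks 300 bp. Of the 8 genes to the right of the line 7 are filled, HisRS being the exception, and of the 14 to its left 4 are filled.

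The sequence at the best summits was poorer in G and C than at optimal summits in general. Within 50 bp of the 14 best summits GC content averaged 28.9% (SD 7.40), against 34.4% (SD 8.56) over all 6835 optimal summits. In windows centred 300 bp to either side it was 44.9% at the members and 44.7% over the list. The difference, summit minus flank, was -16.0 percentage points at the members (SD 12.9, n = 14) and -10.3 over the list (SD 12.0), so the gap between the averages was smaller than the spread among regions. GC content was lower than in the flanks at 12 of the 14, against 80.2% of all optimal summits. The exceptions were ValRS, with 12.4 points more than its flanks, and ArgRS-m, with 6.44 more. The longest run of A and T alone had a median of 13 bases at the members (8 to 43) and 10 over the list, and the longest were at GlyRS (43 bases) and AlaRS (28).

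**Figure D5:**
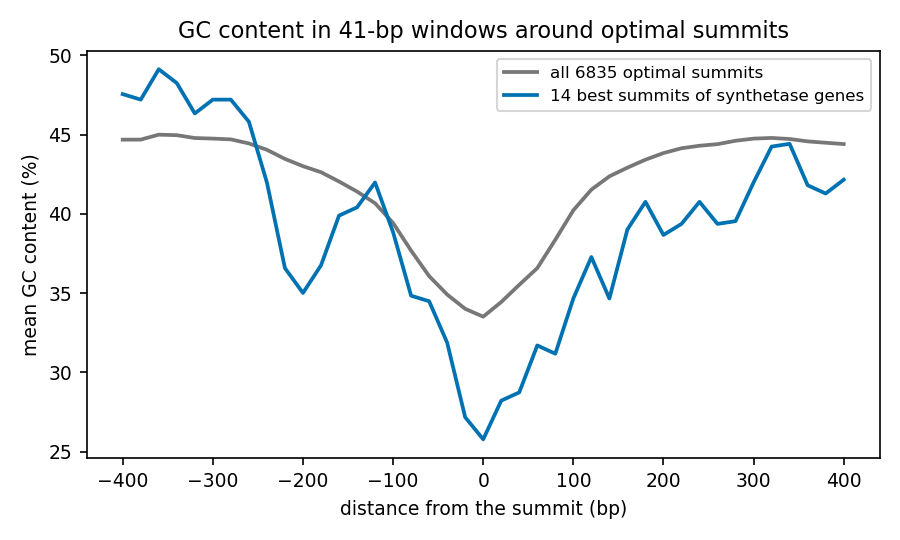
Mean GC content (%) in windows reaching 20 bp to either side of points up to 400 bp from the summit (horizontal axis, bp), for the 14 best synthetase summits and all 6835 optimal summits. Both lines are lowest at the summit, at 25.8% for the synthetase genes and 33.5% for all, and the synthetase line is the more ragged because it averages 14 regions.

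Of 10 motifs searched within 50 bp of the 14 best summits, on both strands and with overlaps allowed, TATAAA was the commonest. It was found at 7 of the 14, AlaRS, AsnRS, SerRS, ThrRS, CysRS-m, LeuRS-m and SerRS-m, against 20.1% of all optimal summits. The member windows were also richer in A and T, and the part of that in this count was not tested. The DNA replication-related element TATCGATA and its core ATCGAT, which lies inside it, were at 0 of the 14 (1.57% and 5.05% of all optimal summits). The E-box CACGTG (0.732%), the E-box variant CAGCTG (3.39%) and the paired-domain core TCACGC (1.33%) were also at 0, as was TGATGNAA (1.68%), an element of the type bound by the stress factor ATF4. GAGAG was at SerRS-m alone (9.60%), CACACA at ArgRS alone (6.35%) and Motif 1, with 1 mismatch allowed, at ValRS alone (1.51%). With shares this low over the list, 0 or 1 match among 14 windows says little.

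The 4 listed synthetase and synthetase-like genes whose symbols the pattern misses were all bound, against 34.1% of all genes. GluProRS, which encodes a single protein loading glutamate and proline, had a signal of 431 (rank 729), 130 bp upstream of its start. The genes of the subunits of the cytosolic phenylalanine enzyme followed, with alpha-PheRS at 530 (rank 491, its strongest summit 1847 bp from its own start and nearest to CG17982) and beta-PheRS at 102 (rank 5258, 78 bp). Slimp, a mitochondrial relative of SerRS, had 123 (rank 4329, 129 bp upstream). All 4 had top-ranked summits in both replicates. With Slimp added to the 15 mitochondrial genes and the others to the 17 cytosolic genes, 13 cytosolic and 5 mitochondrial genes were bound.

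Other genes of tRNA charging and supply varied. AIMP1, AIMP2 and AIMP3, which encode the scaffold proteins of the multisynthetase complex, had 0 of 3 bound. GatA (signal 359) and GatC (96.0), subunits of the amidotransferase that makes mitochondrial glutaminyl-tRNA, were bound and GatB was not, with P5cr and PolG2 the nearest start sites to those regions. GatC was not top-ranked in replicate 3. Of 13 genes of tRNA processing and modification 3 (23.1%) were bound, La, RNaseZ and Tcs5, and Tcs5, which encodes a kinase of the complex that adds threonylcarbamoyl groups to tRNA adenosines, had one of the strongest regions of the list (signal 2194, rank 16). Of 12 genes of RNA polymerase III, which transcribes tRNA genes, and its regulators 8 (66.7%) were bound, and by the top-ranked regions 7 were in replicate 1 and 8 in replicate 3. Bdp1 (950.3, rank 142) and Brf (714, rank 265), subunits of its initiation factor, were the strongest. Maf1, the repressor of the polymerase, was not bound. None of the 14 best synthetase summits lay within 2 kb of a tRNA gene.

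In mammals many cytosolic synthetase genes are targets of ATF4, the effector of the integrated stress response, in which uncharged tRNA is one trigger. Of 10 fly genes of that response 6 were bound, crc, Thor, AsnS, trbl, Nmdmc and Xrp1, with 6 in replicate 1 and 5 in replicate 3. An optimal summit lay at a start site of 4 of the 10. The strongest trbl summit was 1817 bp from its start. Nmdmc was near the threshold (signal 82.7, rank 6559), was not top-ranked in replicate 3, and had Rel as the nearest start site. At crc, the fly ATF4 gene, the signal was 143 (rank 3603), 224 bp upstream of a start site. AsnS, the asparagine synthetase gene, had 323 (rank 1169), although the nearest start site to that region was that of chb. The kinase genes PEK and Gcn2, eIF2alpha and PPP1R15 were not bound, and PPP1R15 fell just short with a pooled signal of 78.4. These counts stand beside the background of 34.1% of all genes, and the lists are short.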

How the data were processed

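Whole-larva ChIP-seq for ey-eGFP was analysed from the authors' dm6 region lists, 1 group with 2 libraries. Per the file headers and listings, each replicate list, the pooled list and the IDR-thresholded optimal list were derived from alignments and a control. For the IDR threshold, the aligner and the peak caller, names and settings were not given in the sources used here. The dm3 lists and the control were not used here. The deposited signal of a region has no stated scale and served to rank and describe regions within a list. The deposited −log10 q-value is at its ceiling in every optimal region and was not used for ranking. The summit is the region start plus the offset the authors deposited. No read totals accompany the lists, so depth is unknown and no interval was computed.

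Genes came from Ensembl release 115 (BDGP 6.54) and sequence from Release 6 of the genome. Genes were assigned summits with Python 3.11.15 and numpy 2.4.6, figures were drawn with matplotlib 3.10.9, and the assignment was checked on simulated data. Regions shared an overlap of at least 1 bp. Every member is named, and other genes where they are the nearest start site to a best summit, face a member or belong to a list. The members and the lists of other genes were chosen with earlier results of these data known. From the list of tRNA processing, 1 gene is not reported here, and the count given covers the other 13. Alternatives covered the gene window, the start-site distance, the signal threshold, the overlap rule, each replicate by itself and the sequence window. No column of per-sample values was left unmapped, and nothing was tested for significance.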

Additional observations from a re-analysis of the deposited data

How the results depend on the processing

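The order of the classes, more cytosolic than mitochondrial genes bound, held in each of the 10 alternatives to the gene window, threshold, overlap, replicates and member set. These alternatives draw on the same libraries and largely on the same regions, so they are not independent checks. Counting summits inside genes alone left 2 of 17 cytosolic genes, 1 of 15 mitochondrial genes and 2071 of all 13945 genes. Both classes were then below the share of all genes. Within 5 kb, 9 of 15 mitochondrial genes, 14 of 17 cytosolic genes and 7713 of all 13945 genes counted, so the mitochondrial share was slightly above that of all genes. The stronger part of the optimal list marked 7 cytosolic genes, 3 mitochondrial genes and 2951 of all genes. With all pooled regions the counts were 15, 5 and 8839. Leaving out 1 replicate gave 10 to 11 cytosolic and 4 to 6 mitochondrial genes, and start-site summits at 12 to 13 members. With 100 bp to either side of the summit, the DNA replication-related element, its core and the paired-domain core were each at 1 summit, and GAGAG and CAGCTG at 2 each. The GC difference ranged from -17.8 to -12.3 over the window widths and was -13.6 without replicate 3 and -15.0 without replicate 1. The median rank was 2488 in replicate 1 and 1711.5 in replicate 3. The spacing of head-to-head start sites was looked at after the data had been seen. Split at 400 bp instead of 300 bp, 4 members above it and 7 at or below it had a start-site summit, of 5 and 17, against 30.4% and 45.6% of all genes. Split at 200 bp, the counts were 7 of 12 and 4 of 10, against 42.6% and 35.2%, so members and all genes ran the same way there and the contrast depends on the split. No paired analysis was possible because the libraries form 1 group. Depth is unknown, and a gene without a listed region may still carry signal. Absence from the pooled list did not always go with weak regions in the replicates, since PheRS-m (75.2 and 42.1) and TrpRS (52.8 in replicate 1) have no pooled region.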
